A study of Mus musculus with 37 samples.

Results

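Nonsense-mediated decay transcripts are RNAs that the annotation marks with a stop codon far enough upstream of the last exon junction to be a likely target of decay. The members described here were chosen on measured values: a transcript of this GENCODE type was kept when it had at least 10 expected counts in at least 6 of the 12 oocytes of batch A. Of 6924 such transcripts in the table, 1073 (15.5%) met the rule. They lay in 925 host genes, of which 806 held 1 member, 95 held 2 and 24 held 3 or more, with 7 as the most in a host. The rule did not look at the stage of an oocyte, and it did not use batch B.

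In nonsense-mediated decay, a ribosome that ends translation upstream of an exon junction complex recruits UPF1 and the SMG proteins, and the RNA is then cleaved, decapped and degraded. Many genes of splicing factors make such RNAs from a poison exon, an exon whose inclusion brings in an early stop, and so limit their own protein. A fully grown oocyte makes almost no new RNA, so that during meiotic maturation its RNA pool changes chiefly by decay, storage and translation of what is already there.

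The study measured RNA in single mouse oocytes by Smart-seq2, with libraries made by the KAPA HyperPlus kit, and asked how transcripts change as oocytes mature. All 37 oocytes came from C57BL/6 females aged 6 to 8 weeks. Batch A held 6 oocytes at the germinal vesicle stage (GV_A), taken from ovaries 48 h after PMSG, and 6 oocytes at metaphase II (MII_A), taken from the ampulla 15 h after hCG. Batch B held 10 germinal vesicle oocytes (GV_B), also taken 48 h after PMSG, and 15 metaphase I oocytes (MI_B), which had matured from the germinal vesicle stage for 8 h in culture. MII_A oocytes matured in the animal and MI_B oocytes in a dish, and the stages MI and MII were never in the same batch, so that stage, batch and place of maturation cannot be told apart between them. The zona and the polar body had been removed from each oocyte. The animals are not named, so p-values measure the spread between oocytes, not between animals.

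The totals per oocyte ran from 2709280 to 19390128 expected counts, the lowest in MI_B oocyte 15 and the highest in MI_B oocyte 8. A share below is the percentage of a host gene's expected counts that RSEM assigned to a transcript, and it is an estimate wherever transcripts overlap. Of the 1073 members, 607 had no base of their own among the transcripts of their gene, and 128 had neither a base nor an exon junction of their own. Another 256 had 100 or more bases of their own. Errors given with a share or a log2 value cover the spread between oocytes, and reads of these libraries carried no molecular identifiers.

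The cell type was checked with marker genes. The summed level of 10 oocyte genes had medians of 15100 CPM (counts scaled to the library total) in GV_A, 8000 in MII_A, 4680 in GV_B and 4030 in MI_B, with Gdf9 the most abundant. The 14 cumulus and granulosa genes summed to medians of 37.4, 22.0, 27.6 and 20.9 CPM in the same order, of which Cyp19a1 gave means of 17.5, 16.1, 16.1 and 13.6. The 7 blood and immune genes summed to medians of 0.795, 1.47, 2.68 and 2.11, led by Cd68 in batch A and Hbb-bs in batch B. The 5 stress genes summed to medians of 5.74, 6.97, 4.21 and 3.67, led by Hspa1b. The libraries therefore held oocyte RNA, with somatic markers far below the oocyte genes in all 4 groups, and the part of these levels in the results below was not tested.

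Several libraries stood apart. MII_A oocyte 1 had counts in 56045 transcripts, against 39397 to 45125 in the other MII_A oocytes, and its blood and immune genes summed to 12.4 CPM, the highest of MII_A. MI_B oocyte 15, the shallowest library, had counts in 609 members against a median of 835 in MI_B. In MI_B oocytes 4, 8 and 9, the HTSeq total was 64.8%, 63.4% and 52.9% of the RSEM total, against a median of 103% in MI_B. GV_B oocyte 7 had the highest summed member share of its group.

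The label was checked against the transcript models. In 1069 members (99.6%) the stop codon lay more than 50 bases upstream of the last exon junction, and in 4 it lay within that distance. The median distance was 500 bases, with quartiles of 218 and 1009. Among the 16645 coding transcripts that passed the same filter, 66 (0.397%) had a stop that far upstream, and their median was -137, that is, a stop downstream of the last junction. The 5851 other transcripts of the decay type had a median of 312 bases and a median length of 1062 bases, against 2042 bases in the members. The label is a call from the position of the stop: it does not show that a transcript was degraded.

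The models reached their stop in different ways. In 330 members (30.8%) the frame changed after an exon of the coding transcript was skipped, and in 326 (30.4%) it changed in another way. An extra exon held the stop in 182 members (17%), an extension of an exon in 119 (11.1%) and another kind of exon in 32 (2.98%). A further 68 members (6.34%) ended at the same stop as the coding transcript they were set against, and where the models differed was not part of this class. The remaining 16 (1.49%) had no coding transcript in the host. The extra exons had a median of 120.5 bases, from 25 to 1208, and 65 of the 182 (35.7%) had a length that is a multiple of 3. The stop was TGA in 599 members (55.8%), TAA in 254 (23.7%) and TAG in 220 (20.5%). The annotated reading frame had a median of 345 bases, against 1299 in the coding transcripts that passed the filter. No start codon was found in the models of 23.5% of the members and 4.61% of those coding transcripts, and such frames may be longer than their model.

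The values that chose the members are given as a description. The mean count over the 12 batch A oocytes had a median of 39.2, with quartiles of 19.4 and 106. Of the members, 441 had at least 10 counts in all 12 oocytes and 120 in exactly 6. Through the 6 GV_A oocytes alone 1 member passed, Zbtb8os-201, and 1 through the 6 MII_A oocytes alone, Cox6c-204. The filter itself favoured a difference between the stages in these 2. It did so too in Cdk20-207, Pigk-206, Pnpla2-201, Gfer-202 and Mtmr7-201, described below. Each of Cdk20-207, Pigk-206 and Pnpla2-201 had at least 10 counts in 7 oocytes, among them all 6 of GV_A, so GV_A alone would have met the rule. Gfer-202 and Mtmr7-201 had them in 9 oocytes, among them all 6 of MII_A, so MII_A alone would have met it. For Ppp2r2a-203, with 11 such oocytes, GV_A alone would have met it too. Just inside the rule, the sixth-highest count was 10.01 in Ggps1-206, 10.02 in Bbs5-205 and 10.03 in Ralgapa2-208. Just outside, it was 9.98 in Gtf2h2-205, 9.98 in Setmar-202 and 9.96 in 2010111I01Rik-205. In batch B, 804 members (74.9%) had at least 10 counts in at least 10 of the 25 oocytes, and 269 did not.

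Most members were a minor part of their host. The median share over the 12 batch A oocytes was 12.2%, with quartiles of 3.86% and 34.7%. In 154 members (14.4%) it was over 50%, and in 325 (30.3%) under 5%. By group, the median over members was 12.1% in GV_A, 11.6% in MII_A, 8.75% in GV_B and 8.09% in MI_B. The lower values in batch B cannot be read as a difference between batches, because batch A counts chose the members. Across the 1073 members the GV_A and GV_B median shares had a Spearman correlation of 0.697, a description over transcripts, many of which share a host.

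All members together took a median of 1.65% of an oocyte's counts in GV_A, 1.74% in MII_A, 1.55% in GV_B and 1.34% in MI_B. As a share of their hosts, they summed to 14.6%, 18% and 21.9% in GV_A (lowest, median and highest oocyte) and to 17.0%, 19.8% and 26.0% in MII_A. The 2 groups overlapped. In batch B the summed share was 17.1%, 19.7% and 29.5% in GV_B and 15.7%, 19% and 21.8% in MI_B, and these groups overlapped too. A single transcript weighed heavily in these sums: Lars2-209, of the gene for mitochondrial leucyl-tRNA synthetase, made up 34.4% of the members' mean counts in batch A and 98.8% to 99.8% of its host in the group medians. Without Lars2 the median summed shares were 13.9% in GV_A, 13.4% in MII_A, 14.4% in GV_B and 14.5% in MI_B. The order of the 2 medians was thus the opposite without this gene in both batches, but the stages overlapped. Without Lars2 the oocytes ran from 12.2% to 15.9% in GV_A and from 12.6% to 14.3% in MII_A. They ran from 13.9% to 15.7% in GV_B and from 13.6% to 16.1% in MI_B.

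For some hosts the decay-type transcript was nearly all of the gene. The median share was 100% in 28 members. The 6 of these with the highest mean counts were Gm20449-201, Gm20605-201, Gnptab-206, Pggt1b-201, Vmn2r18-205 and Vmn2r20-202. Pggt1b encodes a subunit of an enzyme that adds lipid anchors to proteins, Gnptab a subunit of the enzyme that tags lysosomal proteins, and the Vmn2r genes are of the family of vomeronasal receptors. Gm20449-201, Gm20605-201 and Pggt1b-201 belong to hosts with no coding transcript in the annotation, so that their share is fixed by the models. Gnptab-206 is not such a case, and its share ran from 69.0% to 100% in GV_A and from 0% to 100% in MII_A.

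GV_A and MII_A were compared to ask whether the share of a member in its host differs between the stages. A call took an adjusted p under 0.05 (Benjamini-Hochberg, over every transcript in the test) and a change over 2-fold. With diffSpliceDGE of edgeR, which sets a transcript against the rest of its gene, 12 of 994 members tested were called (1.21%), beside 0.959% of all 15750 transcripts tested. The p-values and SE of diffSpliceDGE rest on a spread between oocytes pooled over the transcripts of a gene, not on that of 1 transcript. By direction, 5 members had a higher share at MII (0.503%, beside 0.565% of all) and 7 a lower share (0.704%, beside 0.394% of all). With a fit that gives each transcript a spread of its own, added after the data were seen, 17 of 994 members were called (1.71%, beside 1.54% of all), of which 9 were higher and 8 lower. With limma's diffSplice the count was 29 of 994 (2.92%, beside 4.13% of all), 14 higher and 15 lower. Cox6c-204 and Zbtb8os-201 passed the filter through the stage where they were high and give no support. Both are among these 12, the 29 of the ratio below and the 50 in abundance below, and Cox6c-204 is among the 17.

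Set against the summed coding transcripts of the same host in the same oocyte, with limma, 29 of 991 members were called (2.93%), beside 3.16% of the 3762 transcripts tested that were not coding. Of the 29, 14 were higher at MII (1.41%, beside 1.67%) and 15 lower (1.51%, beside 1.49%). Without GV_A oocyte 4 the count was 19 (1.92%, beside 2.74% of all), 10 higher and 9 lower. Without GV_A oocyte 2 it was 33 (3.33%, beside 3.91% of all), 10 higher and 23 lower, and without MII_A oocyte 4 it was 22 (2.22%, beside 2.9% of all), 8 higher and 14 lower. The median log2 ratio of MII to GV was -0.06 over the members and -0.07 over all transcripts tested. Of the retained-intron transcripts, 40 were higher and 19 lower of 1517, and of the processed transcripts, 9 were higher and 21 lower of 1246. The kinds of transcript were not tested against each other.

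In abundance, tested with edgeR, 50 of 1073 members were called (4.66%, beside 5.53% of all 22659 transcripts). Higher at MII were 16 (1.49%, beside 1.35%) and lower 34 (3.17%, beside 4.19%). With the spike-ins as the scale, 164 members were called (15.3%, beside 19.1% of all), 8 higher and 156 lower. The host gene was itself called the same way for 23 of the 50 and the opposite way for 0. Of the 50, 33 were called neither in share nor in the ratio to coding transcripts. These abundances are relative to the library: under the spike-in scale the median log2 change of all transcripts went from 0.02 to -0.69 and that of the members from 0.03 to -0.70.

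The calls of the different tests overlapped in part. Of the 12 members called by diffSpliceDGE, 9 were among the 17 of the fit with a spread per transcript, and 11 were among the 29 of the ratio to coding transcripts. The 12 members called by diffSpliceDGE are described first.

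Gfer encodes a sulfhydryl oxidase that works in the import of proteins into mitochondria. The share of Gfer-202 was 0%, 1.90% and 3.72% in GV_A and 35.5%, 43.7% and 51.7% in MII_A (lowest, median and highest of 6 oocytes each). Every MII_A oocyte lay above every GV_A oocyte. The coding share of the gene went from a median of 62.2% to 36.8%, while the gene's total had a log2 change of 0.02 (adjusted p 0.946, edgeR). The log2 change of the share was 4.45 ± 0.51 (SE; adjusted p 2.71e-08, diffSpliceDGE), and that of the ratio to coding transcripts 6.43 ± 0.97 (adjusted p 0.00293, limma). The MII_A counts of Gfer-202 alone met the rule, so the filter favoured this difference and these tests give no independent support. The model ends at the stop of a coding transcript, 89 bases before the last junction, and has 1 junction and 0 bases of its own.

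Haus8 encodes a subunit of augmin, the complex that lets microtubules branch in the spindle. Its transcript Haus8-203 took 3.80%, 7.03% and 7.77% of the gene in GV_A and 24.6%, 26.1% and 35.0% in MII_A. The groups were apart, and the transcript's own 2564 bases set it off from the others of the gene. Its share had a log2 change of 2.10 ± 0.33 (adjusted p 0.000617, diffSpliceDGE). The total of the gene had a log2 change of -0.49, and its coding share went from a median of 92.0% to 72.5%.

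Mus81 encodes the catalytic subunit of a DNA endonuclease that cuts branched structures. Mus81-204 took 1.44%, 3.69% and 4.91% of the gene in GV_A and 24.6%, 30.1% and 34.3% in MII_A, again without overlap. Its log2 change was 3.06 ± 0.60 (adjusted p 0.00129, diffSpliceDGE), and 3.73 ± 0.36 in the ratio to coding transcripts (adjusted p 0.000263, limma). Cox6c encodes a subunit of cytochrome c oxidase. Cox6c-204 was a small part of it, with 0%, 0.244% and 1.05% in GV_A and 1.85%, 5.01% and 6.92% in MII_A. Its groups did not overlap, but it passed the filter through MII_A alone, so these shares are given as a description with no test. Mtmr7 encodes a phosphoinositide phosphatase of the myotubularin family. Mtmr7-201, which gains its stop in an extra exon, took 0.750%, 1.69% and 3.69% in GV_A and 5.17%, 9.02% and 19.2% in MII_A, without overlap. Its adjusted p of 0.0468 (diffSpliceDGE) was under the threshold in 3 of the 12 fits that each left out 1 oocyte and reached 0.17 in the others. The MII_A counts of Mtmr7-201 alone met the rule, so the filter favoured this difference and the test gives no independent support.

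Among the members with a lower share at MII, Cdk20-207 had the largest change. Cdk20 is a cyclin-dependent kinase, and the model stops in an extension of exon 5 of its 6 exons. The share was 17.9%, 45.9% and 55.3% in GV_A and 0%, 0.180% and 1.47% in MII_A. No oocyte of one group came near the other: the counts ran from 271 to 1549 in GV_A and from 0 to 25.2 in MII_A. The log2 change was -6.94 ± 0.65 (adjusted p 7.92e-11, diffSpliceDGE), and -8.85 ± 1.10 in the ratio to coding transcripts (adjusted p 0.000757, limma). The GV_A counts alone met the rule, so the filter favoured this difference and these tests give no independent support. The total of Cdk20 had a log2 change of -0.16 (adjusted p 0.539, edgeR), and the coding share had medians of 18.4% in GV_A and 27.9% in MII_A. In GV_B the share was 0%, 0% and 2.63%, and no GV_B oocyte reached the lowest GV_A oocyte. The transcript did not pass the filter of batch B, and the batches were not tested against each other.

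Ppp2r2a encodes a regulatory subunit of protein phosphatase 2A. Ppp2r2a-203 took 20.2%, 40.1% and 42.9% of the gene in GV_A and 0.862%, 7.91% and 12.8% in MII_A, and the groups did not overlap (log2 -2.29 ± 0.43, adjusted p 0.00453, diffSpliceDGE). Fbxw22 encodes an F-box protein with WD40 repeats. Fbxw22-202, which skips an exon, took 18.7%, 25.1% and 33.0% in GV_A and 4.73%, 6.34% and 10.2% in MII_A. These groups were apart as well (log2 -1.83 ± 0.32, adjusted p 0.00177, diffSpliceDGE). Gpbp1 encodes a factor that binds GC-rich promoters. Gpbp1-204 took 8.47%, 13.7% and 20.2% in GV_A and 1.67%, 3.38% and 8.20% in MII_A, without overlap (log2 -1.71 ± 0.32, adjusted p 0.00199, diffSpliceDGE), but the model has neither a base nor a junction of its own. Zbtb8os encodes archease, a cofactor of the tRNA ligase. Zbtb8os-201 took 17.0%, 29.7% and 37.2% in GV_A and 0%, 5.36% and 8.44% in MII_A, without overlap. It passed the filter through GV_A alone, so these shares too are a description with no test.

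A pair of the 12 had shares that overlapped. Stx5a encodes a SNARE of the Golgi, and Stx5a-218 took 0%, 1.25% and 13.1% in GV_A and 0%, 0% and 0.836% in MII_A. The value of 13.1% came from GV_A oocyte 5, without which the adjusted p was 0.134 in place of 0.00213 (diffSpliceDGE). In the fit with a spread per transcript it was 0.302. Pigk encodes a subunit of the enzyme that attaches GPI anchors. Pigk-206 took 6.28%, 9.46% and 28.9% in GV_A and 0%, 1.22% and 6.61% in MII_A, and its adjusted p of 0.0382 (diffSpliceDGE) was 0.245 in the fit with a spread per transcript. It stayed under the threshold in 4 of the 12 fits that left out an oocyte. The GV_A counts of Pigk-206 alone met the rule, so the filter favoured this difference and these tests give no independent support.

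The GV_B shares were set beside GV_A for the 10 of these members other than Cox6c-204 and Zbtb8os-201. Those of Cdk20-207 are given above, and those of Gfer-202, Mus81-204 and Ppp2r2a-203 follow below. Haus8-203 took 9.12%, 12.6% and 30.2% in GV_B, Mtmr7-201 took 0%, 2.18% and 8.37%, Fbxw22-202 took 2.10%, 7.02% and 17.3%, Gpbp1-204 took 0%, 3.33% and 9.17%, Stx5a-218 took 0%, 0.204% and 2.55%, and Pigk-206 took 0%, 0% and 5.58%. GV_B lay wholly above GV_A for Haus8-203 and wholly below it for Cdk20-207, Fbxw22-202 and Pigk-206, and the other 6 overlapped. The GV_A shares helped to choose these members, so a less extreme share in other GV oocytes can follow from the choice alone. The proportion over all transcripts is not given here and the batches were not tested against each other, so this is a description only.

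The ratio to coding transcripts added 18 members outside the rule for naming, and those named here were chosen after their values were seen. Dusp12-205, of a gene for a dual-specificity phosphatase, took 5.55%, 8.40% and 11.0% of its gene in GV_A and 21.9%, 23.4% and 27.9% in MII_A. The groups were apart, with a log2 ratio change of 1.77 ± 0.25 (adjusted p 0.00239, limma). Psma3-206, of a gene for a subunit of the 20S proteasome, took 1.04%, 2.81% and 3.65% in GV_A and 9.52%, 15.5% and 28.2% in MII_A, also without overlap (log2 2.49 ± 0.41, adjusted p 0.00562, limma). B4galt2 encodes a galactosyltransferase. B4galt2-202 took 0%, 1.75% and 5.14% in GV_A and 9.58%, 14.3% and 19.5% in MII_A, without overlap (log2 4.00 ± 0.73, adjusted p 0.00973, limma).

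Lower at MII was Pnpla2-201, of the gene for the main triglyceride lipase of fat cells. It took 35.3%, 65.6% and 75.9% of its gene in GV_A and 0%, 0% and 10.4% in MII_A, a change without overlap in a gene of low counts (log2 ratio -7.95 ± 1.36, adjusted p 0.00654, limma). The filter favoured this change, and the test gives no independent support, because GV_A alone would have met the rule for Pnpla2-201. Its model has neither a base nor a junction of its own, and the same holds for Mrpl48-202 below. In GV_B its share was 0%, 0% and 18.1%. Mrpl48-202, of a gene for a mitochondrial ribosomal protein, took 21%, 25% and 28.8% in GV_A and 10.3%, 12.4% and 17.7% in MII_A (log2 -1.16 ± 0.22, adjusted p 0.0118, limma), and its groups did not overlap.

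A change against the coding transcripts is not always a change of share. Rnf8 encodes a ubiquitin ligase of the response to DNA breaks, and Rnf8-206 took 31.4%, 36.6% and 42.6% of the gene in GV_A and 31.5%, 36.2% and 38.4% in MII_A, with overlap. The coding share of the gene was 3.37%, 7.00% and 11.8% in GV_A and 16.9%, 19.8% and 21.4% in MII_A. The log2 ratio of the member to the coding transcripts was accordingly lower at MII by -1.47 (adjusted p 0.019, limma; 0.0512 without GV_A oocyte 3), while the share had a log2 change of -0.04. Also added by the ratio, whether or not their shares overlapped, were Rnf8-210, B4galt2-206, Mbd6-203, Ndufa3-204, Emc8-202 and Adprm-204. Hnrnpa1-204, Tyw5-201, Clasp1-226, Ercc6-206 and Snapc3-206 were added too. The shares of Mbd6-203, Emc8-202, Hnrnpa1-204 and Snapc3-206 did not overlap between GV_A and MII_A. The fit with a spread per transcript also called Adprm-204, Emc8-202 and Hnrnpa1-204 in share. The models of Ndufa3-204 and Tyw5-201 have neither a base nor a junction of their own. In the 12 fits that each left out 1 oocyte, Snapc3-206 and Tyw5-201 kept the call in 1, Ercc6-206 in 2, Clasp1-226 in 3, Adprm-204 in 4, Emc8-202 and Hnrnpa1-204 in 5, B4galt2-206 in 7, Mbd6-203 in 11, and Rnf8-210 and Ndufa3-204 in 12.

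The bases at the stop are shown for 5 members whose shares differed between GV_A and MII_A and whose window lies in 1 exon. The place of the stop, relative to the last junction, is what puts a transcript in this class. In Gfer-202 it is the stop of a coding transcript, with a junction downstream of it, and not an early one. Each window is 30 bases of the transcript read 5′ to 3′ from mm10, with the stop codon in capitals. They lie at chr17:24694280-24694309 on the minus strand for Gfer-202, at chr8:71255501-71255530 on the minus strand for Haus8-203, at chr1:170880957-170880986 on the minus strand for Dusp12-205, at chr12:70978790-70978819 on the plus strand for Psma3-206 and at chr13:64436803-64436832 on the plus strand for Cdk20-207.
Gfer-202: gacggctggaaggacggctcctgtgacTAG
Haus8-203: agagaaagacttggcagccatgtgccaTGA
Dusp12-205: tataatgaagaccgaccagcttaccttTGA
Psma3-206: gccatgaaggctgtggaaaacagtaggTAA
Cdk20-207: cagtatgaccagggcgttgacctatggTGA

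GV_B and MI_B were compared in the same way, in oocytes that the rule did not use. With diffSpliceDGE, 0 of 737 members were called, beside 0.0182% of all 16463 transcripts. At an unadjusted p under 0.05 there were 13 members (1.76%, beside 2.1% of all), and limma's diffSplice called 1 (0.136%, beside 0.115% of all), Colec12-201. The fit with a spread per transcript called 0 members, beside 0% of all, with 20 members (2.71%, beside 4.02% of all) at an unadjusted p under 0.05. In the ratio to coding transcripts limma called 0 of 740 members, beside 0.0231% of the 4321 transcripts tested, and 40 members (5.41%, beside 8.03% of all) had an unadjusted p under 0.05. In abundance edgeR called 0 of 804 members, beside 0% of all 22735, with 38 members (4.73%, beside 7.12% of all) at an unadjusted p under 0.05. DESeq2 called 2 (0.249%, beside 0.457% of all), B4galt2-206 and Cdc26-203. These names were chosen after their values were seen. Without MI_B oocytes 4, 8 and 9, without MI_B oocyte 15, or without GV_B oocyte 7, diffSpliceDGE, edgeR and the ratio with limma gave the same counts of members called as with all oocytes. A p that misses the threshold does not show that the shares did not differ.

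The spread within the groups of batch B was wide. The 3 members with the smallest p, none of them called, were Ahcyl1-203, Cdc6-203 and Mms19-203. Ahcyl1 encodes a regulator of the inositol trisphosphate receptor, and Ahcyl1-203 took 0%, 13.0% and 38.4% in GV_B and 0%, 0.825% and 10.0% in MI_B. Its groups overlapped (log2 -2.39 ± 0.68, adjusted p 0.607, diffSpliceDGE). Cdc6 encodes a loading factor of DNA replication, and Cdc6-203 took 0%, 1.10% and 7.95% in GV_B and 0%, 5.56% and 45.4% in MI_B, with overlap. Mms19 encodes a factor that delivers iron-sulfur clusters, and Mms19-203 took 0%, 0% and 12.1% in GV_B and 0%, 11.8% and 49.3% in MI_B. These oocytes overlapped as well.

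Whether a share moved differently from GV to MII in batch A than from GV to MI in batch B was tested as a difference of the changes. With diffSpliceDGE, 1 of 726 members was called, beside 0.256% of all 12497 transcripts. It was Gfer-202, whose share in batch B was 0%, 13.6% and 30% in GV_B and 0%, 9.48% and 45.6% in MI_B. The batch B groups overlapped, and the difference of the log2 changes was 4.12 ± 1.00 (adjusted p 0.0345). As stated above, the filter favoured the batch A change of Gfer-202, which is part of this difference. Without MII_A oocyte 1, the count was 0 and the difference for Gfer-202 was again 4.12. The fit with a spread per transcript did not call Gfer-202 (adjusted p 0.261) and called 3 other members, beside 0.504% of all, which were named after their values were seen.

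These 3 were Mus81-204, Ppp2r2a-203 and Srsf2-204. Mus81-204 took 0.700%, 8.60% and 14.4% in GV_B and 1.87%, 9.28% and 31.5% in MI_B, with overlap, and the difference of changes was 2.73 ± 0.70 (adjusted p 0.05 after rounding, edgeR). Ppp2r2a-203 took 8.46%, 34.9% and 51.5% in GV_B and 2.37%, 33.8% and 65.1% in MI_B, also with overlap, and the difference was -2.73 ± 0.66 (adjusted p 0.0289, edgeR). Srsf2 encodes a splicing factor that limits its own level through such RNAs. Srsf2-204 took 12.9%, 16.3% and 28.6% in GV_A and 0%, 5.75% and 9.29% in MII_A, without overlap. Its share was not called in batch A (adjusted p 0.321 with diffSpliceDGE, 0.194 in the fit with a spread per transcript, and 0.138 in the ratio with limma), while its abundance was (log2 -2.65, adjusted p 0.0281, edgeR). The total of the gene had a log2 change of -0.94 (adjusted p 0.005, edgeR). In batch B it took 7.24%, 11.8% and 15.4% in GV_B and 7.55%, 16.2% and 28.8% in MI_B, with overlap, and the difference was -2.19 ± 0.53 (adjusted p 0.0302, edgeR). The model of Srsf2-204 has neither a base nor a junction of its own. With diffSpliceDGE their adjusted p was 0.469, 0.263 and 1. All 3 were also among the 7 members that limma's diffSplice called for this difference.

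Members in hosts known for this kind of control, or named by the study, were taken from a list of 69 genes. Cdk20 is in the list because the study named it for a splicing event in these data, so a call of its members is not independent of that choice. The list held 26 members in 18 hosts, with median shares over the batch A oocytes from 0.834% to 43.9%. Of the 26, all were tested in batch A and 1, Cdk20-207, was called, both by diffSpliceDGE (beside 0.959% of all) and in the ratio to coding transcripts (beside 3.16%), with 2 at an unadjusted p under 0.05 in diffSpliceDGE (beside 5.33% of all). In batch B, diffSpliceDGE called 0 of 21 tested (beside 0.0182% of all), 0 had an unadjusted p under 0.05 (beside 2.1%), and the members that limma's diffSplice or DESeq2 called there were not from the list.

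The splicing regulators came first in this list. Srsf1-204 took 13.0%, 21.9% and 29.1% of its gene in GV_A and 15.6%, 20% and 23.3% in MII_A. In batch B it took 20.4%, 26.9% and 32.1% in GV_B and 13.9%, 27.7% and 37.4% in MI_B, so that all 4 groups overlapped. Srsf3-201 holds its stop in an extra exon of 456 bases and took 4.89%, 9.06% and 15.7% in GV_A and 0%, 5.49% and 17.2% in MII_A, with overlap, and its model has neither a base nor a junction of its own. Tra2b-206 holds it in an extra exon of 276 bases and took 4.80%, 6.13% and 10.1% in GV_A and 0.836%, 4.55% and 7.99% in MII_A. Its groups overlapped, as did those of batch B, with 6.57%, 14.7% and 34.4% in GV_B and 7.04%, 18.6% and 66.5% in MI_B. The stops of these poison exons are shown because they are the sites through which these genes are known to limit themselves, at chr17:29039458-29039487 on the plus strand for Srsf3-201 and at chr16:22259181-22259210 on the minus strand for Tra2b-206, with the stop codon in capitals.
Srsf3-201: accatcatgtctcttctcaccaccctcTGA
Tra2b-206: aatgagtatttgaagctcaggaataagTGA

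Of the proteins that bind nuclear RNA, Hnrnpdl-201 took 10.5%, 12.9% and 21.8% in GV_A and 10.6%, 14.1% and 21.7% in MII_A. In batch B its shares were 24.5%, 40.9% and 64.8% in GV_B and 26.2%, 52.0% and 89.3% in MI_B. The stages overlapped within each batch, while GV_A and GV_B did not overlap, and batches were not tested against each other. Tardbp-228, of the gene for TDP-43, took 9.84%, 19.4% and 24.8% in GV_A and 14.3%, 18.6% and 24.8% in MII_A, with overlap. Its share in GV_B was 2.67%, 7.94% and 10.3%. Hnrnpl-213 varied widely among oocytes of a stage, from 0% to 69.3% in GV_A and from 0% to 91.7% in MII_A, and its model has neither a base nor a junction of its own.

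Some genes of the decay machinery were themselves hosts. Dcp1a encodes a cofactor of decapping, and Dcp1a-209 took 33.3%, 40.3% and 48.7% in GV_A and 29.8%, 39.9% and 45.4% in MII_A. With 28.4%, 35.7% and 39.0% in GV_B and 22.1%, 33.8% and 40.2% in MI_B, the groups overlapped in both batches. Dis3 encodes a nuclease of the exosome and held 2 members. Dis3-203 took 18.1%, 46.5% and 57.3% in GV_A and 12.7%, 26.4% and 43.2% in MII_A, with overlap, and Dis3-205 took 29.1%, 40.5% and 71.0% in GV_A and 22.2%, 50.3% and 58.5% in MII_A, with overlap too.

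Of the genes that the study names for splicing events, Cdk20 held 3 members and Arpp19, which encodes an inhibitor of protein phosphatase 2A at entry into meiosis, held 1. Arpp19-202 took 0.523%, 3.63% and 8.38% in GV_A and 1.15%, 4.18% and 7.51% in MII_A, with overlap. Cdk20-209 took 4.99%, 10.8% and 25.9% in GV_A and 7.69%, 12.5% and 15.8% in MII_A, with overlap, so that Cdk20-207 alone was called among the members of this gene. The third, Cdk20-204, had medians of 2.84% and 1.46%.

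Another 12 members of the list had shares that overlapped between GV_A and MII_A and were called by none of diffSpliceDGE, the fit with a spread per transcript and the ratio with limma. Their medians in GV_A and MII_A were 11.8% and 16.4% for Clk1-210, 2.01% and 1.01% for Clk1-211, 12.6% and 7.33% for Sf1-201, and 2.09% and 1.86% for Ptbp2-206. They were 2.07% and 3.64% for Hnrnpa2b1-207, 4.96% and 5.72% for Hnrnpa2b1-209, 2.06% and 2.57% for Hnrnpdl-205, 4.45% and 5.11% for Tardbp-208, and 3.36% and 3.54% for Tardbp-230. For the decay genes they were 10.8% and 11.1% for Edc4-204, 3.01% and 2.89% for Exosc10-203, and 0.649% and 1.00% for Gspt2-202.

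The pathway itself was read at the gene level from a list of 34 genes. In batch A, 0 of 34 were called by edgeR in either direction, beside 8.48% of all 13034 genes, of which 283 were higher and 822 lower at MII. At an unadjusted p under 0.05 there were 12 of the 34, beside 34.2% of all genes, and DESeq2, or edgeR on the HTSeq counts, called 0. The median log2 change of the list was 0.07, and that of all genes 0.01. With an adjusted p under the threshold but a change under 2-fold were the kinase gene Smg1 (log2 0.73), its partner Smg8 (0.41), the splicing and junction factors Rnps1 (0.65) and Rbm8a (-0.46), and the decay genes Xrn1 (0.63), Dcp1a (0.69) and Dcp2 (0.66). The share of all genes under this criterion is not given here, so these names are a description only. With the spike-ins as the scale, 8 of the 34 (23.5%) were called, all lower, beside 30.3% of all genes: Smg9, Sap18, Etf1, Eif4e, Ncbp1, Rbm8a, Dcp1b and Casc3. In batch B, edgeR called 0 of 33 genes tested, beside 0.096% of all 12499 genes, with 2 at an unadjusted p under 0.05 (11% of all genes) and 0 called by DESeq2 or from the HTSeq counts, and with a median log2 change of 0.01 against 0.02 for all genes.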

How the data were processed

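After trimming with Trim Galore 0.6.4, the authors estimated the deposited expected counts per transcript and per gene with RSEM 1.3.1 on mm10 and GENCODE M20. The deposited HTSeq counts per gene were made by the authors with STAR 2.7.6a and HTSeq 0.12.4. Neither was normalized. Transcript types and models were read from GENCODE M21, in which 138789 of 138835 identifiers were found. Spike-ins were left out of the fits, and expected counts were rounded for edgeR.

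All transcripts with at least 10 counts in at least 6 of 12 (batch A) or 10 of 25 (batch B) oocytes were tested, with TMM scaling and Benjamini-Hochberg adjustment over all of them. Shares were tested with diffSpliceDGE and abundance with quasi-likelihood F-tests in edgeR 4.0.16. The log2 ratio to the summed coding transcripts, with 0.5 added to each, was tested with limma 3.58.1 in R 4.3.3, and DESeq2 1.42.0 served as an alternative. Tested on simulated data, diffSpliceDGE, which shares a spread among the transcripts of a gene, made few calls and recovered few of the changed transcripts. In the batch A setting 5 of its 10 calls lay in genes left unchanged, and in the batch B setting 11 of 15. Its calls therefore stand beside a fit with a spread per transcript, chosen after seeing the data.

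The members and lists were chosen with earlier results of these data known. Named were the members with the smallest adjusted p among those called in share in batch A, the 6 with the highest share (ties broken by mean count), the 3 with the smallest p in batch B, those called for the difference of changes, and members in listed hosts. Which of the last were described in full was chosen after their values were seen.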

Additional observations from a re-analysis of the deposited data

Results flagged for a closer look

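In 137 groups of oocytes, over 46 named members and 4 values per oocyte, the highest or lowest oocyte was compared with its nearest neighbour by Dixon's ratio. MI_B was not looked at, since its 15 oocytes are more than the 10 that the ratio was applied to. An oocyte lay apart in 17 groups. Chance alone marks about 1 in 20 groups of independent, normally distributed values, which these shares are not. In some groups all oocytes but 1 are tied at 0% or 100%, and that oocyte is then always marked. The 2 rates can therefore not be compared.

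In GV_A, an oocyte lay above the others in the share of 5 members. Oocyte 6 had 1.05% for Cox6c-204 (next 0.284%), oocyte 5 had 13.1% for Stx5a-218 (next 3.57%), and oocyte 2 had 28.9% for Pigk-206 (next 12.1%). Oocyte 1 had 26.1% for Hnrnpa2b1-209 (next 8.45%), and oocyte 2 had 5.77% for Hnrnpdl-205 (next 3.06%). An oocyte lay below the others in 3 members. Oocyte 2 had 17.9% for Cdk20-207 (next 43.6%) and 20.2% for Ppp2r2a-203 (next 37.1%), and oocyte 3 had 69% for Gnptab-206 (next 100%). Oocyte 2 was thus the outlying oocyte of 4 of these 8 groups.

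In MII_A, oocyte 3 had 1.47% for Cdk20-207 (next 0.39%) and oocyte 1 had 98.9% for Vmn2r20-202 (next 100%). Oocyte 1 also had counts in 56045 transcripts (next 45125).

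In GV_B, oocyte 3 had 8.37% for Mtmr7-201 (next 3.96%) and 2.3% for Cdk20-204 (next 0%), oocyte 2 had 5.58% for Pigk-206 (next 0.351%), and oocyte 6 had 42.5% for Gnptab-206 (next 71.8%). Oocyte 7 had 2.67% for Tardbp-228 (next 6.99%) and a summed member share of 29.5% (next 21.1%).

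The change of share from GV to MII in batch A differed from that from GV to MI in batch B, by a test of the difference itself, in 4 members over 2 tests that shared none of them. The difference was 4.12 on the log2 scale for Gfer-202 with diffSpliceDGE, and 2.73 for Mus81-204, -2.73 for Ppp2r2a-203 and -2.19 for Srsf2-204 in the fit with a spread per transcript. In the other of the 2 tests, the adjusted p was 0.261 for Gfer-202, 0.469 for Mus81-204, 0.263 for Ppp2r2a-203 and 1 for Srsf2-204, and Gfer-202 lost its call without MII_A oocyte 1. The filter favoured the batch A change of Gfer-202. With limma's diffSplice, 7 members were called for this difference: Mus81-204, Ppp2r2a-203, Srsf2-204, Fbxw22-202, Gpbp1-204, Mms19-203 and Ippk-203, and Gfer-202 was not.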

How the results depend on the processing

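No called value changed sign under an alternative run. The order of the median summed shares of the 2 stages switched without Lars2 in both batches, with oocytes of the stages overlapping. Of the 702 values of named members in share in batch A, 668 kept their side of the threshold and 34 lost the call. In the ratio to coding transcripts, 692 of 810 kept it, 116 lost it and 2 gained it. In abundance, 320 of 341 kept it, 17 lost it and 4 gained it. For the difference of changes, 19 of 28 kept it, 3 lost it and 6 gained it.

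In batch A share, 12 members were called. The count was 29 with limma's diffSplice (2.92%, beside 4.13% of all), of which 8 were among the 12, and 10 to 13 with an oocyte left out (1.01% to 1.31%, beside 0.667% to 1.1%). In abundance, 50 were called, 77 with DESeq2 (7.18%, beside 8.02%), 164 with spike-in scaling (8 higher, 156 lower; 15.3%, beside 19.1%) and 37 to 58 with an oocyte left out (3.45% to 5.41%, beside 4.14% to 5.64%). In the ratio, 29 were called, 41 with a pseudocount of 5 (4.14%, beside 4.31%) and 19 to 33 with an oocyte left out (1.92% to 3.33%, beside 2.6% to 3.91%), the 19 without GV_A oocyte 4. In batch B share, 0 were called by diffSpliceDGE, 5 without a filter (0.473%, beside 0.449%) and 1 with limma's diffSplice (0.136%, beside 0.115%), against 13 at an unadjusted p under 0.05. In batch B abundance, edgeR called 0 and DESeq2 2 (0.249%, beside 0.457%), against 38 at an unadjusted p under 0.05. For the difference of changes, 1 was called, 7 with limma's diffSplice (0.964%, beside 0.92%), 3 with a spread per transcript (0.413%, beside 0.504%) and 0 without MII_A oocyte 1 (25 at an unadjusted p under 0.05 with all oocytes). Leaving out MI_B oocytes 4, 8 and 9, MI_B oocyte 15, or GV_B oocyte 7 gave the same counts as all oocytes in batch B and for the difference of changes. Of the pathway genes in batch A, edgeR called 0 (12 at an unadjusted p under 0.05, beside 34.2% of all genes) and spike-in scaling 8 (23.5%, beside 30.3%). Without Lars2 the median summed shares were 13.9% (GV_A), 13.4% (MII_A), 14.4% (GV_B) and 14.5% (MI_B). The fit with a spread per transcript, the leaving out of Lars2 and the leaving out of GV_B oocyte 7 and, for the difference of changes, of MI_B oocytes were chosen after seeing the data. The cause of these shifts was not tested.

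The labels do not say whether oocytes of the same number are paired, and the main fits did not pair them. Oocytes of the same number in GV_A and MII_A had correlations from -0.183 to 0.128, and in GV_B and MI_B from -0.1 to 0.08. Correlations of so few oocytes cannot exclude a pairing. With the number as a replicate block, 7 members were called in batch A share (0.704%, beside 0.66% of all), 22 in abundance (2.05%, beside 2.34%) and 9 in the ratio (0.908%, beside 1.3%), all among those called without the replicate block.

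The members number 1401 at 5 counts, 771 at 20 counts, 1542 at 3 oocytes and 762 at 9 oocytes. The shares rest on RSEM's split of reads among overlapping models, which these files do not let one repeat. A member with few counts, or in a host with few, has a share that 1 oocyte can move widely. Tested on simulated data, each of the tests missed most of the changed transcripts, diffSpliceDGE nearly all of them, so a low count leaves large differences possible. MI_B oocyte 15 was shallow, and the spread between oocytes was wide in batch B.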
